A study of Homo sapiens with 4 samples.

Results

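Intergenic m6A peaks that were found in both replicates of OE-19 cells were described here by their place relative to genes, their motif and their grouping along the genome. OE-19 is an established cell line of adenocarcinoma of the esophagogastric junction. The study used meRIP-seq, in which RNA fragments carrying N6-methyladenosine (m6A) are captured with an antibody and sequenced, and regions with piled-up fragments are called as peaks. The labels gave 4 samples of OE-19 cells and named no treatment, with 2 replicates of the m6A immunoprecipitation (m6A IP) and 2 replicates of the input RNA, and peak lists of the m6A IP replicates alone were used. The labels do not say whether the replicates came from separate cultures.

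The peaks were chosen by the calls of both lists. A replicate 1 peak on chromosomes 1 to 22 or X was taken when its summit, the base of highest signal, lay in no GENCODE gene body and when it overlapped a replicate 2 peak by at least 1 bp. Of 24607 replicate 1 peaks, 1217 had an intergenic summit on these chromosomes, and 518 of those were shared (42.6%, 95% Wilson interval 39.8% to 45.4%). The other 699 are called unshared below. Over all 24530 replicate 1 peaks on these chromosomes the shared portion was 56.7%. The sharing was the selection itself, so these counts are descriptions. By the same rule applied to the replicate 2 list, 524 of 2247 intergenic peaks were shared (23.3%). The intervals and p-values given here cover counting over peaks within these libraries, not variation between cultures, and the lists hold no read numbers, so depth is unknown.

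m6A is deposited on RNA during transcription by the METTL3 and METTL14 complex, mostly at adenosines within a short sequence around GGAC. RNA polymerase II transcribes outside annotated genes as well. It continues past gene ends (readthrough), it starts in the reverse direction upstream of promoters (upstream antisense RNA), and some transcripts carry a longer 3′ end than the annotation records. A position past a gene end on the strand of the gene, before a gene start, or far from both therefore says what kind of transcript could cover it, although the peak lists carry no strand.

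The sequences below are from hg38. They show the GGAC nearest the summit for some of the peaks described below that had such a motif within 50 nt. Listed first are those past gene ends, then before gene starts, then farther than 5 kb from every GENCODE gene. Fold enrichment is the peak caller's ratio of signal over local background at the summit. Each is written 5′ to 3′ on the strand that holds the motif, with GGAC in capitals.
ENSG00000279392 end, chr14:55229663-55229690, plus strand: aaagcgacctgtGGACtaaaatctgcca
ENSG00000289513 end, chr21:41777457-41777484, plus strand: cctcaggctttgGGACtcagaagcacac
ENSG00000229970 end, chr7:8346057-8346084, minus strand: ccacctcaggctGGACttcattgtctat
COX19 start, chr7:979346-979373, minus strand: ctatgacgagatGGACtcttgcaccgaa
CDS1 start, chr4:84582425-84582452, plus strand: cgacgcacctctGGACgcccagtgaggc
ENSG00000260877, far, chr11:69383913-69383940, minus strand: tgacagctggttGGACcaccttgcctac
Metazoa_SRP, far, chr15:84473998-84474025, plus strand: ggaagaaggttgGGACctggtgcctgtg
UBE2G1, far, chr17:4396101-4396128, plus strand: tgacttgtgtaaGGACaaacggtaacca

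To place the shared intergenic peaks relative to genes, the nearest gene edge was found for every summit. A summit past the 3′ end of that gene was put on the gene end side, and a summit before its start on the gene start side. The shared and unshared sets also differed in the peaks themselves. The median fold enrichment in replicate 1 was 6.31 for shared and 4.996 for unshared peaks. The median width was 298 bp for shared and 162 bp for unshared peaks. The part of fold enrichment and width in the differences between shared and unshared peaks, here and below, was not tested. Shared intergenic peaks lay past gene ends more often than unshared ones did. Within 5 kb of a gene end there were 168 of 518 shared peaks (32.4%, interval 28.5% to 36.6%) and 158 of 699 unshared peaks (22.6%, interval 19.7% to 25.8%). The difference of 9.83 percentage points passed a two-sided Fisher's exact test (p = 0.000145, adjusted p = 0.000363 with Benjamini-Hochberg over 10 tests). Within 5 kb of a gene start there were 131 shared peaks (25.3%, interval 21.7% to 29.2%) and 175 unshared peaks (25.04%, interval 21.97% to 28.4%), a difference of 0.25 points that did not pass (Fisher's exact test, adjusted p = 0.947). The remaining 219 shared peaks (42.3%) and 366 unshared peaks (52.4%) were farther than 5 kb from every GENCODE gene, the only genes counted in these distances.

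By Fisher's exact test, the gene end difference kept its direction but no longer passed with protein-coding genes alone (3.75 points, adjusted p = 0.0876) and at q of 1e-05 or less (7.42 points, adjusted p = 0.217). Taken from the replicate 2 list, the gene end difference was 22.5 points, with 168 of 524 shared and 165 of 1723 unshared peaks, and the gene start difference was 14.9 points, with 139 of 524 and 200 of 1723 (Fisher's exact test, adjusted p = 2.71e-31 and 7.05e-15). The comparison on the gene start side therefore depended on the list that supplied the unshared peaks.

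The distances of the shared peaks ran from 4 to 292919 bp with a median of 3409 bp, and the quartiles were 856 and 10409 bp. On the gene end side 44 shared peaks lay within 500 bp, 28 between 500 and 1000 bp, 36 between 1000 and 2000 bp and 60 between 2000 and 5000 bp. On the gene start side the numbers in the same bins were 50, 21, 28 and 32. Shared peaks before gene starts were thus closer to the edge, with a median of 858 bp against 1247 bp past gene ends. Summits over 50 kb from any GENCODE gene were 24 among the shared peaks (4.63%) and 61 among the unshared ones (8.73%). In 49 shared peaks the peak itself reached into a gene body while its summit did not, 27 at gene ends and 22 at gene starts.

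**Figure D1:**
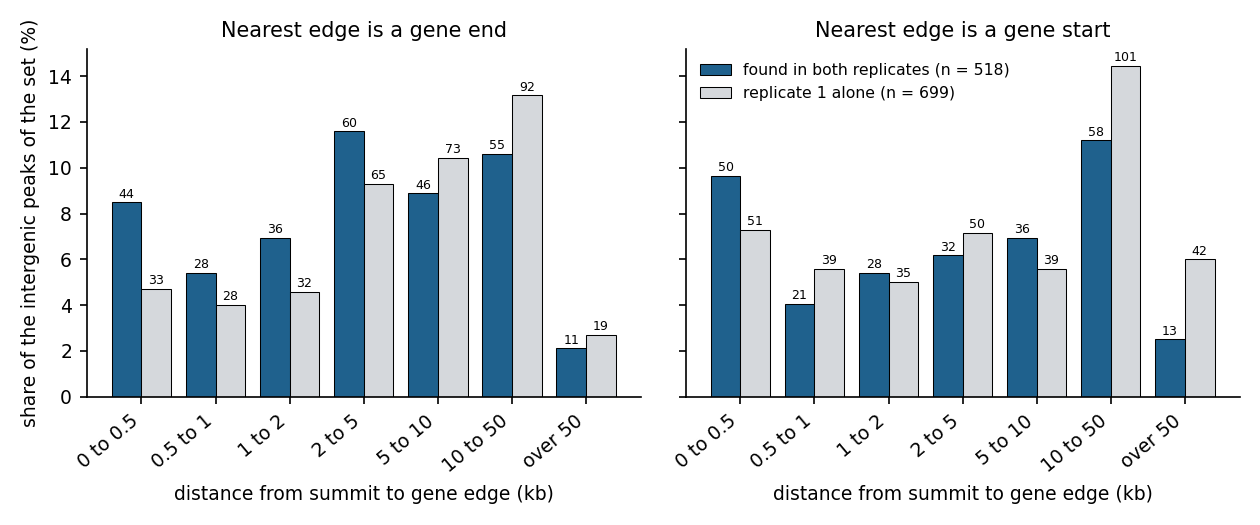
Share of intergenic peaks (%) by distance from the summit to the nearest gene edge (kb, unequal bins), for gene ends (left) and gene starts (right). Dark bars are the 518 peaks found in both replicates, grey bars are the 699 peaks of replicate 1 alone, and numbers on the bars are peaks. In all 4 bins up to 5 kb past gene ends the dark bars are the higher ones, and in both bins over 10 kb on each side the grey bars are the higher ones.

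The neighbouring genes differed by kind between the sides. Past gene ends the nearest gene was a lncRNA for 63 of 168 peaks, protein-coding for 58, a pseudogene for 35 and of another kind for 12. Before gene starts it was protein-coding for 66 of 131, a lncRNA for 37, a pseudogene for 18 and of another kind for 10. The 168 peaks past gene ends belonged to 138 genes, 22 of which had more than 1 peak, and the 131 peaks before gene starts belonged to 119 genes, 11 of which had more than 1. A second gene can make the side ambiguous: 16 of the 168 peaks were also within 5 kb of another gene's start, and 21 of the 131 were also within 5 kb of another gene's end. A further 29 of the 168 were within 5 kb of another gene's end, and 29 of the 131 within 5 kb of another gene's start, so that either gene could give the strand.

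The genes next to these peaks were checked for m6A peaks of their own. The nearest gene held the summit of a shared exonic peak for 69 of 168 shared peaks past gene ends (41.1%) and for 50 of 158 unshared ones (31.6%). This difference of 9.43 points did not pass (Fisher's exact test, p = 0.0849, adjusted p = 0.121). By the same exact test it passed with the limit at 10 kb (11.2 points, adjusted p = 0.0279) and from the replicate 2 list (33.7 points, 74 of 168 against 17 of 165, adjusted p = 4.68e-12). Counted by gene, 34 of 52 protein-coding neighbours past gene ends (65.4%) and 42 of 61 before gene starts (68.9%) carried a shared exonic peak, against 33.4% of all 19970 protein-coding genes. For lncRNA genes the numbers were 16 of 49 (32.7%) and 7 of 35 (20%), against 4.62% of all 18756. These shares were not tested, and expression was not measured here.

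Next, the peaks with the highest fold enrichment were examined on each side, ranked by the geometric mean of both replicates. Past gene ends the first was at chr14:55229582-55229911, 22 bp past the end of ENSG00000279392, a processed pseudogene. Replicate 1 had a fold enrichment of 52.4 here and replicate 2 one of 30.1, the highest of all 518 in each replicate. RefSeq places the gene UBE2L1 at this summit, and the 51 bases around the summit occur at 1 other place in the genome. The next was at chr21:41777148-41777683, 1402 bp past the lncRNA ENSG00000289513, where replicate 1 had 15.0 and replicate 2 had 20.5. Both of these peaks had GGAC on the strand of the gene, 26 and 4 bp from the summit. The peak past ENSG00000289513 also had it on the opposite strand.

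Lower in this ranking, a peak 3346 bp past ENSG00000288922 (chr10:5485035-5486672) had values of 15.2 and 13.8 for replicates 1 and 2. A peak 1543 bp past ENSG00000229970 (chr7:8345715-8346317) had 16.9 and 12.1, and one 4561 bp past ENSG00000289915 (chr19:47238728-47239190) had 15.2 and 9.69. These 3 neighbours are lncRNA genes, and at each the replicates differed by less than 2-fold. The replicates differed far more at ENSG00000223612, a processed pseudogene with 2 of the 8 highest peaks past its end. There the peak at chr1:145234867-145235338 had 41.8 in replicate 1 and 4.74 in replicate 2, and the peak at chr1:145233367-145234264 had 28.5 and 5.04. The summit sequence of each occurs at 1 further place. GGAC was on the opposite strand alone at ENSG00000229970 and on both strands at ENSG00000289915. It was on neither strand at ENSG00000288922 and at both ENSG00000223612 peaks. RefSeq places VOPP2P at both ENSG00000223612 summits, LOC124904731 at the ENSG00000289915 summit, and no gene at the others of this paragraph.

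Before gene starts, the highest peak was at chr8:70401-70640, 2082 bp upstream of the lncRNA ENSG00000253896, where replicate 1 had 13.8 and replicate 2 had 19.1. Its summit sequence occurs at 4 places. The peak 4945 bp before the lncRNA ENSG00000290900 (chr20:30728246-30729045) followed with 12.1 and 12.3. Then came peaks at 3 protein-coding genes. COX19 encodes a protein needed for assembly of cytochrome c oxidase, and the peak 3771 bp before it (chr7:979159-979427) had 12.5 and 10.6. CDS1 encodes a CDP-diacylglycerol synthase of phospholipid synthesis, and the peak 662 bp before it (chr4:84582260-84582680) had 14.3 and 8.32. IMPA1 encodes inositol monophosphatase, and the peak 3037 bp before it (chr8:81689130-81689836) had 12.1 and 9.58. The sixth, 414 bp before the pseudogene ENSG00000246575 (chr2:85314311-85315925), had 11.5 and 9.64. GGAC stood on the strand of the gene at COX19, CDS1 and IMPA1, and at CDS1 also on the opposite strand. It was on the opposite strand alone at ENSG00000253896, and on neither strand at ENSG00000290900 and ENSG00000246575. RefSeq places CHLSN at the COX19 summit, LOC101927506 at the ENSG00000253896 summit, SOWAHCP3 at the ENSG00000290900 summit, and no gene at the others of this group.

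Farther than 5 kb from every GENCODE gene, the highest peak was at chr11:69382729-69385153, 11451 bp past the lncRNA ENSG00000260877. It had 15.8 in replicate 1 and 18.9 in replicate 2. The summits of the replicates lay 888 bp apart within this wide peak. A peak 29482 bp before UBE2G1, which encodes a ubiquitin-conjugating enzyme (chr17:4395906-4396383), had 15.9 and 11.4 with summits 5 bp apart. The peaks 8361 bp past ANKRD36 (chr2:97272692-97273439) and 5264 bp past the pseudogene MUC20P1 (chr3:195625426-195625669) had 13.0 and 13.5, and 11.9 and 14.6. A copy of the signal recognition particle RNA (Metazoa_SRP) was nearest to a peak at chr15:84473824-84474217, with 13.7 and 13.98. A Y RNA gene was nearest, at 81026 bp, to a peak at chr9:67615745-67616261, with 9.38 and 18.1. The summit sequence had 4 occurrences at each of these last peaks, 2 at ANKRD36 and 1 at the others of this group. Within the group, the Metazoa_SRP summit alone lies inside a RefSeq gene, LOC102724135. GGAC was on the strand of the gene alone at Metazoa_SRP and the Y RNA gene, and on the opposite strand alone at ENSG00000260877 and UBE2G1. It was on neither strand at ANKRD36 and MUC20P1.

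Peaks near protein-coding genes were also read out by themselves, a choice made after the values were seen. Past gene ends the 6 highest included peaks at chr2:130659344-130659502 and chr2:130660994-130661298 past POTEJ, of the POTE ankyrin gene family, with 14.2 and 8.41, and 12.9 and 9.12, in replicates 1 and 2. Their summit sequences occur at 2 and 3 places. A peak 2051 bp past FIBCD1, an acetyl-group receptor gene (chr9:130900227-130900876), had 14.7 and 8.08. A peak 1869 bp past the zinc finger gene ZFP62 (chr5:180845499-180845991) had 9.30 and 11.4, and one 4789 bp past IGF2BP2, which encodes an RNA-binding protein known as an m6A reader (chr3:185638073-185638637), had 11.8 and 7.29. Another was 1898 bp past FAM186A (chr12:50324103-50325022), with 9.87 and 11.1, and its summit sequence occurs at 2 places. FIBCD1, ZFP62 and IGF2BP2 also carried a shared exonic peak, and POTEJ and FAM186A did not. The IGF2BP2 peak lies between convergent genes, 4790 bp past the end of SENP2, so its assignment and strand rest on 1 bp. GGAC was on the strand of the gene alone at the first POTEJ peak, FAM186A, ZFP62 and IGF2BP2. It was on neither strand at FIBCD1 and the second POTEJ peak. The motif site at ZFP62, on the strand of the gene, is shown as an example past a gene with a shared exonic peak.
ZFP62 end, chr5:180845722-180845749, minus strand: ggcagacattggGGACctgaagtctgtc

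The replicates were then compared over all 518 shared intergenic peaks. Since a peak had to be called in both lists, the values describe the selected peaks and were not tested. Replicate 1 had a median of 6.31, with the middle of the peaks between quartiles of 4.64 and 8.72, and replicate 2 a median of 5.61, with quartiles of 4.21 and 7.17. Of the 518, 330 peaks (63.7%) were higher in replicate 1. For shared exonic peaks 78.7% were higher in replicate 1. The log2 fold enrichment of the replicates had a Pearson's r of 0.46 across the 518 peaks, against 0.49 across the 1266 shared intronic and 0.68 across the 12122 shared exonic peaks. In 64 peaks (12.4%) the replicates differed by more than 2-fold. The summits lay a median of 42.5 bp apart, and 390 (75.3%) were within 100 bp.

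By position, the medians in replicates 1 and 2 were 6.97 and 5.30 past gene ends, 6.50 and 4.98 before gene starts, and 5.83 and 5.73 far from genes. Peaks near genes thus had the higher values in replicate 1 and the lower values in replicate 2. The median width of a peak was 355 bp past gene ends, 304 bp before gene starts and 257 bp far from genes. In replicate 2 the summit of the overlapping peak was also intergenic for 504 of the 518 and exonic for 14.

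**Figure D2:**
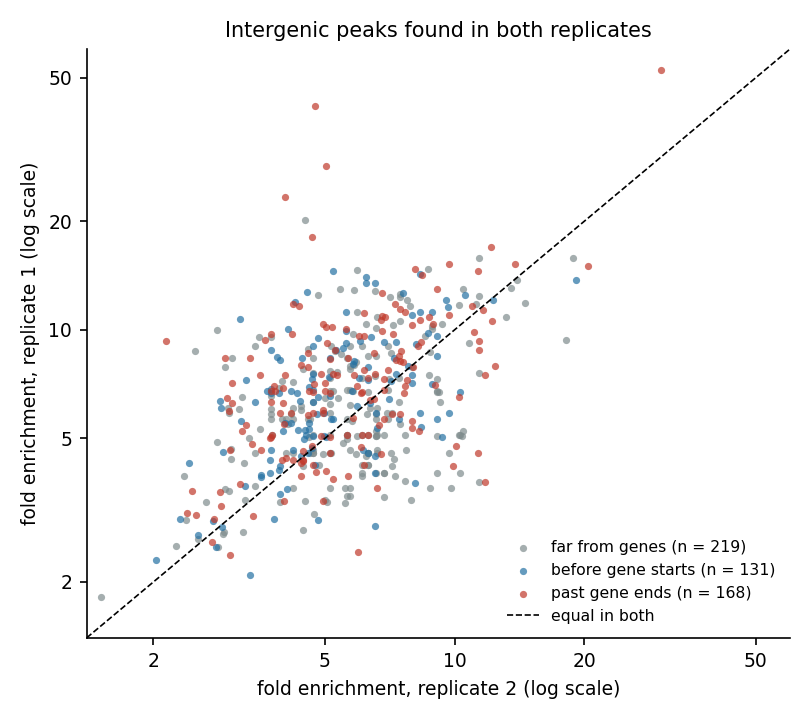
Fold enrichment of the 518 shared intergenic peaks in replicate 2 (x axis) and replicate 1 (y axis), both on a log scale, coloured by position. The dashed line marks equal values, and 330 points lie above it. The point at the upper right is the peak past ENSG00000279392 with 52.4 and 30.1, and the highest of the points far above the line is the peak past ENSG00000223612 with 41.8 and 4.74.

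At the limits of the rule, the smallest overlaps among the shared peaks were 2 bp at chr8:114888122-114888261 (fold enrichment 3.65 in replicate 1 and 5.72 in replicate 2), 3 bp at chr11:103011035-103011183 and 14 bp at chr3:23652099-23652221. Just outside, unshared peaks lay 5 bp from a replicate 2 peak at chr5:86270890-86271115 (3.98), 6 bp at chr3:193832216-193832607 (6.07) and 12 bp at chr20:62378018-62378248 (6.30). Such thin overlaps were few, since the median overlap was 225 bp and 29 of the 518 overlaps were under 100 bp. The summits nearest to a gene were 4 bp from NDUFAF2 (4.35 and 4.21), 4 bp from DDX3ILA1 (5.44 and 3.27) and 5 bp from PNMA6B (8.34 and 5.14). Shared peaks with summits just inside a gene were 5 bp from the edge of WASH9P (2.92 and 3.34), 6 bp in FOXO6 (10.5 and 3.51) and 6 bp in ENSG00000231083 (7.55 and 7.49).

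The motif was not used by the rule and was examined next. GGAC was searched on both strands within 50 nt of each summit, where it could occur on either or on both. It was found at 293 of 518 shared intergenic summits (56.6%, interval 52.3% to 60.8%), and at 64.9% of all replicate 1 summits on these chromosomes. In windows of the same length 1000 bp further from the gene it was found for 196 (37.8%, interval 33.8% to 42.1%). GGAC was at the summit alone for 176 peaks and at the flank alone for 79, so it was more frequent at the summits (two-sided exact McNemar test, p = 1.17e-09, adjusted p = 1.17e-08). Over all 2247 intergenic peaks of replicate 2, most of them unshared, the direction turned, with GGAC at 794 summits and 817 flanks (−1.02 points, exact McNemar test, adjusted p = 0.641). The mean GC content was 53.2% at the summits and 48.3% at the flanks, and its part in this difference was not tested. The 11 other orders of the same letters were on average 5.04 points more frequent at the summit, and at most 10.6 points (GCGA), against 18.7 points for GGAC.

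The share with GGAC was also set against other peaks. Unshared intergenic peaks had it at 349 of 699 summits (49.9%), 6.64 points below the shared ones (Fisher's exact test, p = 0.0236, adjusted p = 0.0393). This difference was positive but did not pass under 6 of 13 alternatives, with the highest adjusted p at 0.217. Shared intronic peaks had GGAC at 860 of 1266 summits (67.9%) and shared exonic peaks at 8114 of 12122 (66.9%). The shared intergenic peaks were 11.4 and 10.4 points below these (Fisher's exact test, adjusted p = 2.47e-05 and 7.42e-06). At q of 1e-05 or less, where 276 shared intergenic peaks remained, the differences were −4.97 and −0.60 points and neither passed (exact test, adjusted p = 0.25 and 1).

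Within the shared intergenic peaks, GGAC was tied to the distance from genes, a comparison added after the data were seen. GGAC was at 195 of 299 summits within 5 kb of a gene edge (65.2%) and at 98 of 219 summits farther away (44.7%), a difference of 20.5 points (Fisher's exact test, p = 4.42e-06, adjusted p = 1.77e-05 over 4 added tests). At q of 1e-05 or less the difference was 9.24 points and did not pass (exact test, adjusted p = 0.269). By group, GGAC was at 63.7% of summits and 36.9% of flanks past gene ends, at 67.2% and 42.7% before gene starts, and at 44.7% and 35.6% far from genes. Mean GC at the summits was 52.0% past gene ends, 58.5% before gene starts and 51.02% far from genes, and its part in the difference was not tested.

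**Figure D3:**
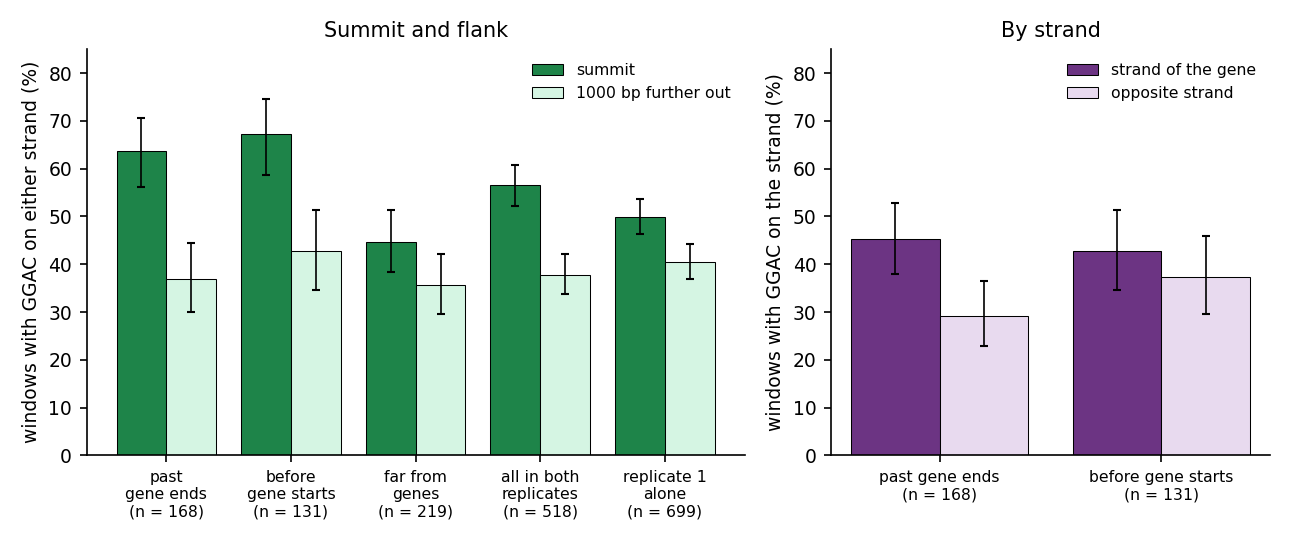
Left, percentage of 101-nt windows with GGAC on either strand at the summit (dark) and 1000 bp further out (light), for shared intergenic peaks by position, for all 518, and for the 699 unshared peaks. Right, percentage with GGAC on the strand of the nearest gene (dark) and on the opposite strand (light). Bars start at 0 and lines are 95% Wilson intervals. The intervals of summit and flank are apart in both groups near genes and overlap far from genes.

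Because a readthrough or extended transcript runs on the strand of its gene and an upstream antisense transcript on the other, GGAC was counted by strand. Past gene ends it was within 50 nt of the summit on the strand of the gene for 76 of 168 peaks (45.2%) and on the opposite strand for 49 (29.2%). It was on the strand of the gene alone for 58 peaks and on the opposite strand alone for 31 (two-sided exact McNemar test, p = 0.00554, adjusted p = 0.0111). Before gene starts the numbers were 56 (42.7%) and 49 (37.4%) of 131, with 39 and 32 on 1 strand alone, and the difference of 5.34 points did not pass (exact McNemar test, adjusted p = 0.53). The sides themselves did not differ past the threshold in this respect, with 58 of 89 against 39 of 71 on the strand of the gene (Fisher's exact test, p = 0.197, adjusted p = 0.247).

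By the exact McNemar test, the strand difference past gene ends did not pass with members from the replicate 2 list (9.52 points, adjusted p = 0.106), without peaks that touch a gene (12.8 points, adjusted p = 0.0721), with protein-coding genes alone (20 points, adjusted p = 0.0631), without summits in RefSeq genes (15.3 points, adjusted p = 0.0968), or with all 2247 replicate 2 intergenic peaks (4.20 points, adjusted p = 0.478). Without peaks that had a second gene within 5 kb, an alternative added after the data were seen, it passed (17.9 points, 58 and 36 of 123, exact McNemar test, adjusted p = 0.0163). By kind of gene, GGAC was on the strand of the gene alone and on the opposite strand alone for 27 and 10 of the 58 peaks past protein-coding genes, for 21 and 13 of the 63 past lncRNA genes, and for 6 and 8 of the 35 past pseudogenes.

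Along the sequence, GGAC on the strand of the gene was concentrated at the summits past gene ends. There were 34.5 motifs per 100 peaks in each 50-nt bin next to the summit, against 16.7 per bin beyond 300 nt. On the opposite strand the values were 17.6 and 15.0. Before gene starts they were 28.6 and 17.46 on the strand of the gene and 25.2 and 19.9 on the opposite strand. Far from genes the values were 16.9 and 15.9 on the strand of the gene, and 17.6 and 14.3 on the opposite strand. On the strand of the gene the ratio of the values was 1.06 far from genes, 2.07 past gene ends and 1.64 before gene starts. On the opposite strand it was 1.23, 1.17 and 1.26. These profiles are descriptions with no test.

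**Figure D4:**
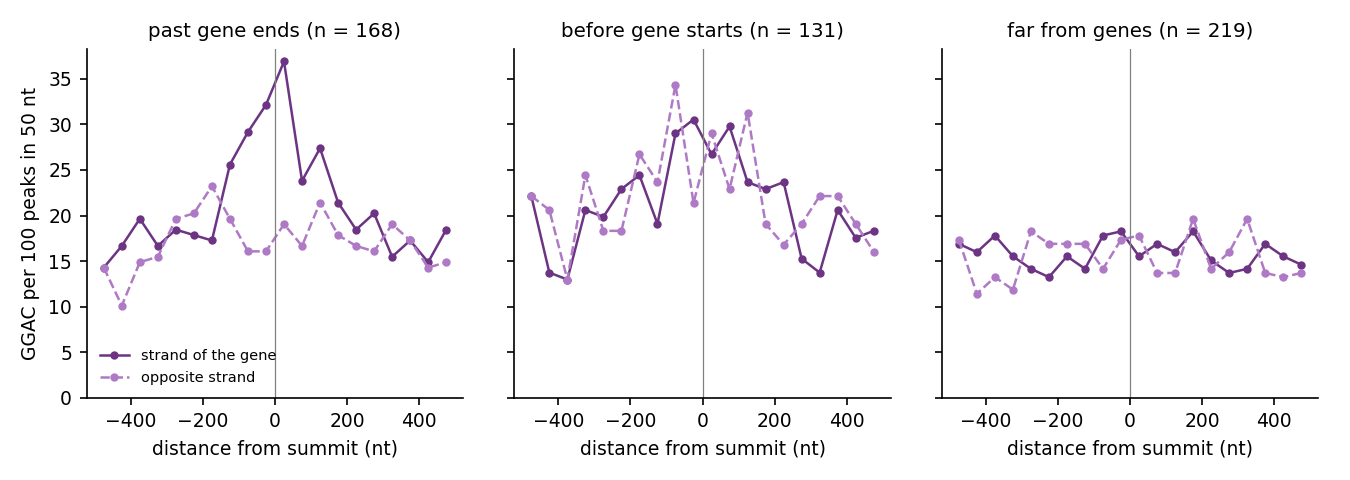
GGAC motifs per 100 shared intergenic peaks in 50-nt bins, from 500 nt before to 500 nt after the summit in the direction of the nearest gene, for the 3 positions. Solid lines are the strand of the nearest gene and dashed lines the opposite strand. Past gene ends the solid line peaks at the summit with a mean of 34.5 in the bins next to it, where the dashed line has a mean of 17.6 and, over all bins, runs from 10.1 to 23.2.

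The hexamer AATAAA, the usual polyadenylation signal, was searched in the 1000 nt downstream of the summit in the direction of the gene. It was present on the strand of the gene for 80 of 168 shared peaks past gene ends (47.6%), and its reverse complement TTTATT was in the same windows for 68 (40.5%). Unshared peaks past gene ends had it for 65 of 158 (41.1%) and 59 (37.3%). Before gene starts the shares of shared peaks were 26.7% and 19.1%. These shares are descriptions with no test.

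A second annotation covered a part of these positions. The RefSeq gene table (assembly GRCh38.p14, of the same build, in which 39673 of 39731 symbols common with GENCODE overlapped it) contained the summit of 190 of the 518 shared intergenic peaks in a gene (36.7%), and of 177 of the 699 unshared peaks (25.3%). This comparison, added after the data were seen, gave a difference of 11.4 points (Fisher's exact test, p = 2.27e-05, adjusted p = 4.54e-05), which did not pass at q of 1e-05 or less (5.21 points, adjusted p = 0.269). The remaining 328 peaks (63.3%) were in no gene of either annotation. By position, a RefSeq gene held 70 of the 168 shared summits past gene ends (41.7%) and 55 of the 131 before gene starts (42.0%). Farther than 5 kb from every GENCODE gene it held 65 of 219 shared (29.7%) and 74 of 366 unshared summits (20.2%). Of the 190, 91 were in genes with LOC symbols alone, and 54 were in a RefSeq gene with the same symbol as the nearest GENCODE gene, so that RefSeq extended that gene over the peak. Of these 54, 34 were past the GENCODE end and 20 before the GENCODE start.

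Named by the same ranking, genes that RefSeq extends past the GENCODE end included ZFP62, given above, the lncRNA LINC01770 (chr1:1430248-1430757, 8.80 in replicate 1 and 11.4 in replicate 2), and the pseudogenes METTL15P1 (7.92 and 12.4) and ZBTB45P1 (12.6 and 6.80). The summit sequences of METTL15P1 and ZBTB45P1 each occur at 2 places. Genes extended before the GENCODE start included COL26A1, a collagen gene (chr7:101362395-101363589, 14.03 and 6.23), DOCK9, which encodes an activator of the GTPase CDC42 (chr13:99086887-99087540, 9.79 and 8.70), and KCNK2, a potassium channel gene (chr1:215005576-215005867, 6.72 and 10.3). These are longer models of named genes in that annotation. The DOCK9 summit also lies in a separate RefSeq gene, DOCK9-DT, and its GGAC is on the strand opposite to DOCK9 alone. The RefSeq genes with the most members were CAMSAP1-DT, LINC00630, LOC105373195, LOC112268335 and LOC124903820, with 4 each. In CAMSAP1-DT, a divergent lncRNA gene, the 4 peaks lay 936 to 3525 bp past the GENCODE end, with fold enrichments of 3.36 to 5.03 in replicate 1 and 4.01 to 5.14 in replicate 2.

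Some summits lay in sequence that is not unique. For 124 of 518 shared peaks (23.9%) and 130 of 699 unshared peaks (18.6%), the 51 bases centred on the summit occurred again elsewhere on chromosomes 1 to 22, X or Y (Fisher's exact test, added comparison, p = 0.0269, adjusted p = 0.0269). The difference of 5.34 points did not pass under 6 of 9 alternatives. Past gene ends 54 of the 168 shared peaks (32.1%) had such a summit, before gene starts 24 of 131 (18.3%) and far from genes 46 of 219 (21.0%). How reads with several matches were treated is not given in the sources used here.

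Finally, the grouping of the shared intergenic peaks along the genome was described. With summits within 10 kb joined, 310 peaks stood alone and 208 (40.2%, interval 36.0% to 44.4%) fell into 85 clusters. These were 58 pairs, 19 groups of 3, 5 groups of 4 and 3 groups of 5. The interval treats peaks as independent, although a peak is in a cluster only together with another. Over all 1217 intergenic peaks of replicate 1, joined in the same way, 472 (38.8%) were in clusters, a share near that of the shared peaks. The share in clusters was 32.7% without copied summit sequences. Per chromosome the numbers ran from 4 on chromosome 18 to 54 on chromosome 1. Relative to length they were highest on chromosome 21 (53.5 per 100 Mb) and chromosome 17 (45.6 per 100 Mb). Of the intergenic peaks of replicate 1 there, 25 of 47 (53.2%) and 38 of 77 (49.4%) were shared, against 42.6% over all chromosomes used. In the chromosome 21 clusters of 3, the summit sequence had a further copy for 3, 3, 3 and 2 peaks (first summits 6145915, 8457155, 43390192 and 8230682). In its pairs it had one for 2 (6726847) and 1 (13373873).

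The 3 largest clusters were on chromosome 17 and had low fold enrichments. One spanned 12718 bp between the twinfilin pseudogene TWF1P1 and the lens crystallin gene CRYBA1 (summits 29218265 to 29230983), with 2.75 to 5.29 in replicate 1 and 2.92 to 5.58 in replicate 2. Another spanned 11024 bp between HAP1, which encodes a huntingtin-associated protein, and JUP, which encodes junction plakoglobin (41736483 to 41747507), with 2.497 to 3.94 and 2.35 to 2.91. The third spanned 8904 bp past ENSG00000278954 (41669064 to 41677968), with 2.58 to 3.08 and 2.38 to 4.72. GGAC was within 50 nt of the summit for 1, 0 and 2 of the 5 peaks of these clusters. Of the 5 clusters of 4 peaks, those with the longest spans had higher values. Those between DENND3 and SLC45A4, genes for a Rab exchange factor and a solute carrier (chr8:141196559-141205952), had 4.35 to 11.4 and 3.04 to 7.47, and those past LINC02038 (chr3:193824689-193832817) had 8.74 to 10.6 and 2.49 to 8.87. GGAC was present for 2 and 3 of these.

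**Figure D5:**
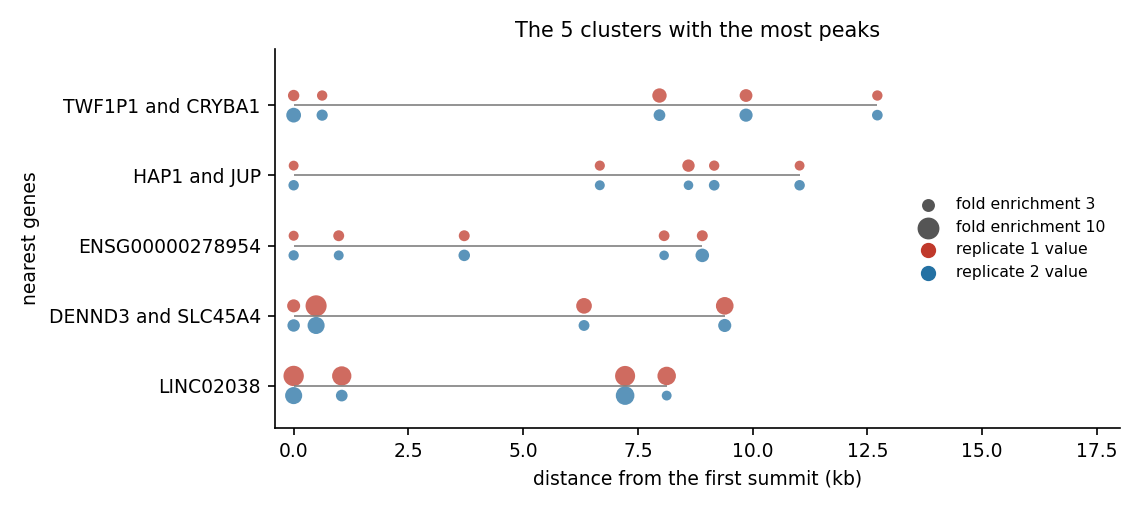
The 5 clusters with the most shared intergenic peaks, drawn to scale by distance from the first summit (kb), with the nearest genes on the left. Point area is proportional to fold enrichment, in replicate 1 (red, upper) and replicate 2 (blue, lower). The 15 peaks of the upper 3 clusters are at most 5.58 in either replicate, while the lower 2 clusters reach 11.4 in replicate 1 and 8.87 in replicate 2.

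A stretch of chromosome 17 around 2 of these clusters, with summits from 41641863 to 41747507, had 17 of the 38 shared intergenic peaks of that chromosome. Their fold enrichment ran from 2.30 to 4.38 with a median of 3.06 in replicate 1, and from 2.03 to 4.72 with a median of 2.83 in replicate 2, below the medians of 6.31 and 5.61 over all 518. GGAC was at 3 of the 17 summits (17.6%), and 2 had a summit sequence with a further copy. The stretch, taken from 41.6 to 41.8 Mb, also held 3 unshared replicate 1 peaks and 33 intergenic replicate 2 peaks, 18 of them shared. Leaving it out ended no call given above.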

How the data were processed

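meRIP-seq peak lists of OE-19 cells were analysed, 1 list for each of the 2 m6A IP replicates, and the 2 input samples entered no comparison. Groups were taken from the labels. The labels describe UV-fixed, lysed cells and the study's methods describe fragmented total RNA. The authors called peaks with MACS2 on hg38. The submitters' processing notes name fastp, HISAT2 and MACS2, whereas the study's methods name TopHat2 for mapping. Tool versions and the role of the input in peak calling are not given in the sources used here. Each deposited peak has its fold enrichment (a ratio over local background), its summit offset, a score, and p- and q-values given as −log10. The lists hold no strand and no read number, so precision is set by the number of peaks. The lists ended at q of 0.0491 (replicate 1) and 0.0497 (replicate 2). The p-value and score columns were not used further.

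Genes were those of GENCODE version 44 (62062 on chromosomes 1 to 22 and X), and sequences were read from hg38. Coordinates are 1-based. A peak overlapping several replicate 2 peaks was paired with the one of largest overlap. A flank was the window 1000 bp further from the nearest gene edge, and could itself lie in a gene or another peak. Shares were compared with two-sided Fisher's exact tests and paired windows with exact McNemar tests, adjusted by Benjamini-Hochberg over 10 tests, and over 4 for comparisons added later. In alternatives where some tests could not be made, as with a replicate left out, the adjustment was over those that remained. Intervals are 95% Wilson intervals. Peaks are not replicates, and neighbouring peaks can share a transcript.

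Named were the 8 highest peaks past gene ends, the 6 highest before gene starts, the 6 highest far from genes and the 5 clusters with the most peaks (ties by span), with the peaks nearest each limit of the rule. For 1 of the peaks past gene ends the result is not reported here. Peaks of protein-coding and RefSeq-extended genes were added after their values were seen. The peaks, lists and tests were chosen with earlier results of these data known. Alternatives concerned the q threshold, overlap, summit, list, gene contact, clusters, edge limit, gene kind, motif window, flank, joining distance and each replicate left out. Added later were leaving out RefSeq genes, copied sequences, a stretch of chromosome 17 and peaks with a second gene nearby. The nearest edge, overlap and cluster steps, the tests and the adjustment were checked on simulated data. The motif, flank, copy, RefSeq, neighbour gene and hexamer steps were not. Python 3.11.15, numpy 2.4.6, pandas 2.3.3, scipy 1.17.1 and pysam 0.24.0 were used.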

Additional observations from a re-analysis of the deposited data

Results flagged for a closer look

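The excess of GGAC at the summit over the flank differed between shared intergenic peaks near and far from genes, by a test of the difference itself that was added after the data were seen. Among peaks with GGAC in only the summit or only the flank window, it was at the summit for 115 of 153 within 5 kb of a gene edge (75.2%) and for 61 of 102 farther away (59.8%), a difference of 15.4 points (two-sided Fisher's exact test, p = 0.0126, adjusted p = 0.0168 over 4 added tests). It did not pass under 7 of 19 alternatives.

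Contigs outside the assembled chromosomes, which no comparison used, also held peaks found in both replicates. Of 55 replicate 1 peaks on them, 37 overlapped a replicate 2 peak. On chromosomes 1 to 22 and X, 13906 of 24530 did (56.7%), and the difference was not tested.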

How the results depend on the processing

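The GGAC excess over the flank kept its direction and passed in 16 of 17 alternatives, the GGAC deficits against intronic and exonic peaks in 12 of 13, the gene end difference in 12 of 14 and the RefSeq difference in 9 of 10. Differences are in percentage points. The cause of each change below was not tested.
At q of 0.01 or less, the gene start difference was −0.74, and GGAC against unshared peaks (5.93), the near and far difference in summit excess (13.2) and further copies (4.77) no longer passed. At q of 1e-05 or less there were 276 members (47.0% of intergenic peaks) with medians of 8.004 and 6.35, and these no longer passed: gene end side (7.42), GGAC against unshared (6.90), intronic (−4.97) and exonic peaks (−0.60), near against far (9.24), summit excess (3.05), RefSeq (5.21) and copies (7.93).
With 50% overlap of both peaks, 31.7% were shared, 30.8% of members clustered, and summit excess (3.44) and copies (1.68) no longer passed. With summits within 100 bp, 32.5% were shared, 33.2% clustered, the median summit distance was 25 bp and summit excess (6.84) did not pass. By peak midpoint, GGAC against unshared peaks (4.50) did not pass and the strand difference before gene starts was −1.47. From the replicate 2 list, 23.3% were shared, the gene start (14.9) and neighbour gene (33.7) differences passed, and the strand difference past gene ends (9.52) and summit excess (9.80) did not.
Without peaks touching a gene, the gene start difference was −0.35, and GGAC against unshared peaks (6.26), the strand difference past gene ends (12.8) and copies (3.97) did not pass. With 1 peak per cluster, 38.9% were shared and copies (3.07) did not pass. At a limit of 1 kb, summit excess (11.8) did not pass, and at 10 kb the neighbour gene difference (11.2) did. With protein-coding genes alone, the gene end (3.75) and strand (20) differences did not pass. With a 25-nt window, GGAC against unshared peaks (4.20) and summit excess (7.95) did not pass. Joining within 50 kb put 45.0% in clusters. Without RefSeq genes, 328 members remained (38.6% shared), and GGAC against unshared peaks (7.03), the strand difference past gene ends (15.3) and copies (2.38) did not pass. Without copied sequences, 32.7% were in clusters.
With each replicate left out in turn, all intergenic peaks of the other list were used, and p-values were adjusted over fewer tests. The peaks then numbered 1217 to 2247, the GGAC excess over the flank was −1.02 to 13.4, the strand difference past gene ends 4.20 to 11.3, before gene starts 2.61 to 5.31 and between sides −1.29 to 8.89, and the share in clusters 29.5% to 38.8%. The GGAC excess was −1.02 without replicate 1, from 794 of 2247 summits and 817 flanks (exact McNemar test, adjusted p = 0.641). The median fold enrichment was 5.12 in replicate 1 without replicate 2 and 5.16 in replicate 2 without replicate 1.
No paired analysis was possible because the input samples have no values in the comparisons made here, so no groups with common replicate numbers could be paired. Depth is unknown, so the counts of peaks limit the precision.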

Other observations

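The unshared intergenic peaks of replicate 2 stood apart from the shared ones. They numbered 1723 and had GGAC at 508 summits (29.5%). They lay farther than 5 kb from every GENCODE gene in 1358 cases (78.8%). Their mean GC content was 44.04% and their median fold enrichment 5.16. The 524 shared intergenic peaks of the same list had GGAC at 286 summits (54.6%), lay far from genes in 217 cases (41.4%), and had a mean GC content of 53.9% and a median fold enrichment of 5.42. Unshared intergenic peaks of replicate 1 had GGAC at 49.9% of 699 summits and a mean GC content of 52.0%, so the unshared peaks differed between the lists in both measures. The difference between the lists was not tested.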
